A study of Drosophila melanogaster with 4 samples.

Results

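The genes described here encode 33 regulators of chromatin: Polycomb group proteins, Trithorax group proteins and other factors that read, write or move nucleosomes. They were chosen by name, with earlier results of these data known, and all 33 were found among the 13922 protein-coding genes on the main chromosome arms (X, 2L, 2R, 3L, 3R and 4). The RefSeq table named 32 of them by the same symbol and calypso by a synonym (caly). The data are peak lists of anti-GFP CUT&RUN, which cuts and releases DNA next to a bound antibody, on wing imaginal discs dissected from female fly larvae (Drosophila melanogaster) in the wandering stage. Of the 4 libraries, 2 came from the genotype Osa-GFP, in which Osa carries GFP, and 2 from yw, a genotype without GFP in which the same antibody shows its background; all animals were raised at 25 °C and each replicate used 20 to 22 discs. Osa is a subunit of SWI/SNF nucleosome remodelers, present in one class of them. The labels state neither how the tag was made nor whether replicates were separate crosses, so differences between replicates may be technical in part.

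Polycomb group proteins keep developmental genes silent, and Trithorax group proteins keep them active. Polycomb repressive complex 2 (PRC2) methylates histone H3, PRC1 binds that mark and compacts chromatin, and DNA-binding factors bring both to Polycomb response elements. The Trithorax group includes histone methyltransferases, GAGA-binding factors and ATP-dependent remodelers, and osa itself was found in screens for genes that oppose Polycomb. In wing discs both groups maintain the on and off states of homeotic and patterning genes.

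A peak was counted at a gene if it met the gene's span or 2 kb on either side. Peaks of the 4 lists that overlapped by 1 bp or more were merged into regions. Regions with peaks of both Osa-GFP lists are termed Osa-GFP-specific where no yw list had a peak and shared where 1 or both yw lists had one. Regions with yw peaks alone are termed yw-only. Heights are given as fragments over the summit, recovered from the caller's fold. The mean background was 0.472 and 0.46 fragments per position in Osa-GFP replicates 1 and 2, 0.12 in yw replicate 1 and 0.481 in yw replicate 2, so 3 libraries were of like depth and yw replicate 1 was shallow. Heights of lists called separately are set side by side as measured and were not tested. Of short lists of markers, 3 of 6 wing disc genes (vg, nub and sd) met an Osa-GFP-specific region, where 1.81 were expected from genes of like span (the 200 nearest in span to each) and 6.59% of all genes met one. So did 1 of 4 adult muscle precursor genes (0.86 expected), 3 of 4 tracheal genes (0.535 expected), 0 of 4 hemocyte genes (0.795 expected) and 0 of 4 neuron genes (0.98 expected). These are sites on DNA, not expression.

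Most regions that both Osa-GFP lists held at these genes also held a peak of the untagged control, and this rests on yw replicate 2. At the 33 genes 39 distinct regions had peaks of both Osa-GFP libraries, of which 8 were Osa-GFP-specific and 31 were shared. Over the whole series 3344 regions had peaks of both, of which 1765 were Osa-GFP-specific and 1579 were shared. Peaks of yw replicate 2 were in all 31 shared regions and peaks of yw replicate 1 in 10. Without yw replicate 2 the majority turned, to 30 specific regions and 11 shared ones (counted by gene), and with peaks of both yw lists needed it was 29 and 11. In addition, 22 regions were yw-only and 23 held peaks of 1 Osa-GFP list only. Of these 23, 7 of Osa-GFP replicate 1 and 6 of replicate 2 held no yw peak. The others, 6 of replicate 1 and 4 of replicate 2, held a yw peak as well. Osa-GFP-specific regions lay at 5 of the 33 genes, Psc, trx, Trl, psq and Mi-2, which is 15.2% of them against 6.59% of all protein-coding genes. The regulators are long, with a median span of 8331 bp against 2163 bp for all genes, and a longer span meets more peaks. When each was set beside the 200 genes nearest to it in span, the expected number with an Osa-GFP-specific region was 4.28, close to the 5 found.

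Shared regions lay at 11 genes, against 5.23 expected from genes of like span and 7.75% of all genes. Yw-only regions lay at 15 genes, against 9.96 expected from like span and 20.6% of all genes. Regions with 1 Osa-GFP list only, with or without a yw peak, lay at 11 genes, against 9.85 expected and 17% of all genes. With these settings the regulators were thus near genes of their length for Osa-GFP-specific regions and above them for shared and yw-only regions. Over the 542 kb that the gene windows cover, there were 14.8 specific regions per Mb, against 12.8 over the windows of all genes. For shared regions the density was 57.2 per Mb against 12.3, and without psq, which held 7 of them, 50.1 per Mb.

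**Figure D1:**
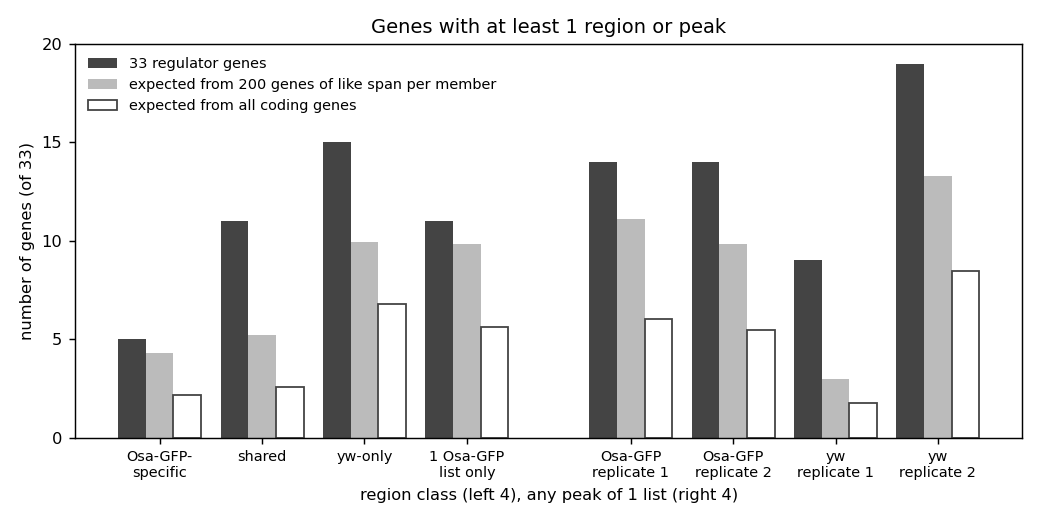
Number of the 33 regulator genes with at least 1 region of each class (left 4 groups) or at least 1 peak of each list (right 4 groups). Regions of 1 Osa-GFP list only are counted with or without a yw peak. Dark bars are the genes found, grey bars the number expected from 200 genes of like span per gene, and open bars the number expected from all protein-coding genes. Dark and grey bars are close for Osa-GFP-specific regions (5 and 4.28) and apart for shared regions (11 and 5.23) and for yw replicate 1 (9 and 2.98).

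List by list, 3 of the 4 lists lay above like-span genes to a similar degree, and yw replicate 1 lay farther above. Peaks of Osa-GFP replicate 1 lay at 14 of the 33 genes, against 11.1 expected from like span and 18.2% of all genes. Peaks of Osa-GFP replicate 2 lay at 14, against 9.84 expected and 16.5% of all genes. Peaks of yw replicate 1 lay at 9, against 2.98 expected and 5.28% of all genes, and peaks of yw replicate 2 at 19, against 13.3 expected and 25.6% of all genes. As a share of each list, the regulators took 0.997% and 1.16% of the Osa-GFP peaks (58 each) and 1.94% and 1.61% of the yw peaks (15 and 73). Both Osa-GFP values were below both yw values, at 1.08% ± 0.118 (SD, n = 2) against 1.77% ± 0.232 (SD, n = 2). The two-sided exact permutation p was 0.33, the smallest that 2 libraries against 2 can give, so the design cannot establish this difference. With each list cut to its 774 strongest peaks the groups met, as Osa-GFP replicate 2 and yw replicate 1 were both at 1.94% (exact permutation p = 0.67).

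Peaks at the regulators met control peaks often. Of the 58 Osa-GFP replicate 1 peaks at these genes, 70.7% overlapped a peak of yw replicate 2, against 34.3% of its peaks in all gene windows and 32.9% of its whole list. For Osa-GFP replicate 2 the values were 69%, 37.4% and 36%. The Osa-GFP lists also met each other somewhat more often here: 74.1% of the replicate 1 peaks at the regulators overlapped replicate 2, against 60.3% of the whole list, and 79.3% of the replicate 2 peaks overlapped replicate 1, against 71.6%. Peaks of a gene lie close together and share its chromatin, so these shares are descriptions.

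Of the 33 genes, 12 had no peak of any list, where 15.4 were expected from like span and 64.8% of all genes had none. They were Sce, E(z), esc, Jarid2, pho, phol, Scm, calypso, ash1, Iswi, Chd1 and kto, with spans of 1599 to 9493 bp and a median of 4105.5 bp, shorter than the 33 as a whole but longer than the median of all genes. The 12 genes with a region of both Osa-GFP lists (7.43 expected from like span, 11.5% of all genes) had a median span of 19272 bp. The shortest of them were Caf1-55, at 1989 bp, ph-d, at 7560 bp, and Su(z)2, at 11411 bp.

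**Figure D2:**
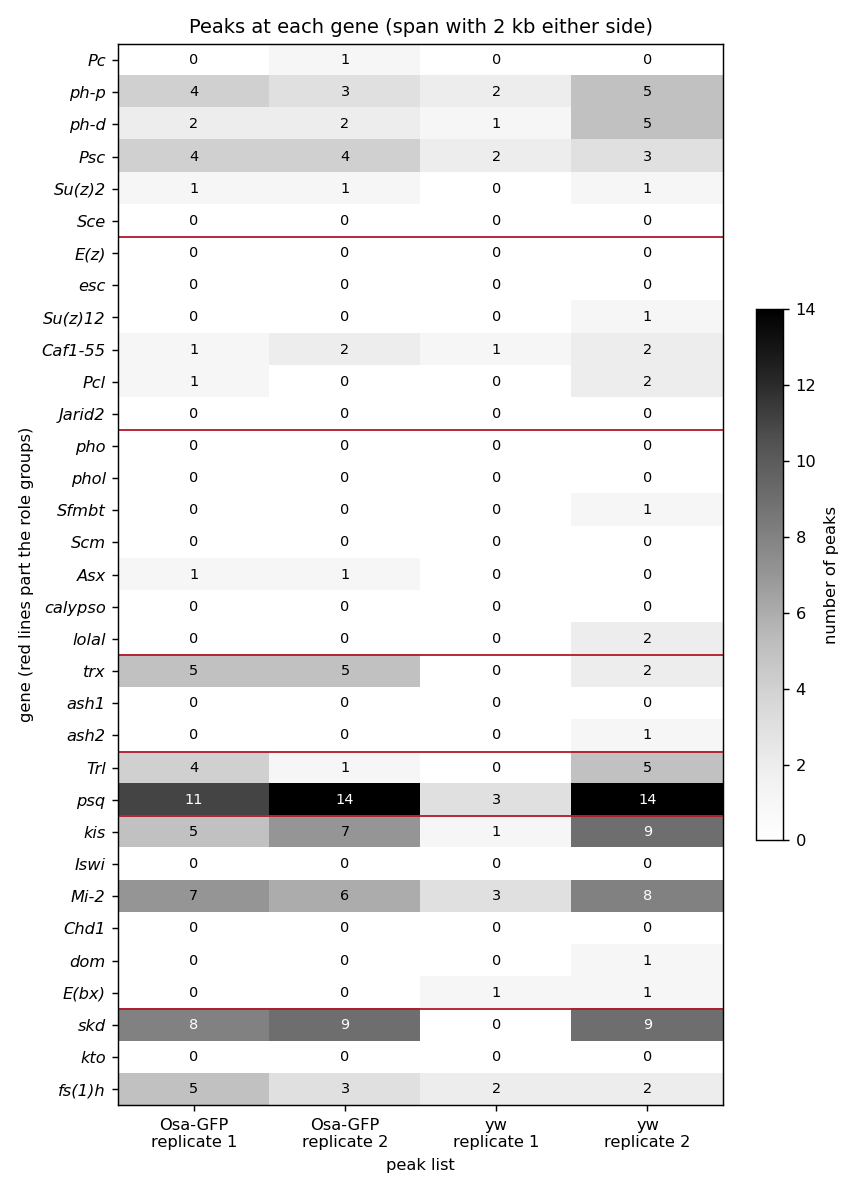
Number of peaks of each list (columns) at each of the 33 genes (rows, in role groups parted by red lines), counted over the gene span with 2 kb either side. psq leads in both Osa-GFP lists (11 and 14) and in yw replicate 2 (14), and 12 rows are at 0 throughout.

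PRC1 is the complex whose genes carried most of the Polycomb group's regions. Of its 6 genes, 4 had a region of both Osa-GFP lists (1.32 expected from like span), with 2 specific and 8 shared regions counted by gene. Posterior sex combs (Psc) encodes a RING finger subunit of PRC1 and had 4, 4, 2 and 3 peaks, given here and below in the order Osa-GFP replicate 1, Osa-GFP replicate 2, yw replicate 1, yw replicate 2. Both Osa-GFP lists were above both yw lists.

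Psc held the highest Osa-GFP-specific region of all the regulators. It lay inside the gene on 2R at 12975694 to 12976052 (dm6, as all coordinates here), with 17 and 18 fragments in the Osa-GFP libraries and caller's folds of 12.2 and 13. It ranked 906th of 5820 peaks in Osa-GFP replicate 1 and 516th of 4987 in replicate 2. The nearest region with a yw peak was 3350 bp away. A second specific region lay inside Psc at 12971776 to 12972362, with 9 and 8 fragments, and was 7040 bp from the nearest yw peak, the farthest among the 8. Of the 200 like-span genes of Psc, 18 had 2 or more specific regions. The gene's higher-coordinate end was covered by a shared region at 12980154 to 12981230, where the heights were 28 and 16 fragments in Osa-GFP and 6 and 35 in yw replicates 1 and 2. There the highest value was in a control library. Su(z)2, the neighbouring paralogue of Psc, had 1, 1, 0 and 1 peaks. Its 1 shared region, at 12996205 to 12997033, lay across the lower-coordinate end with 17 and 15 fragments in Osa-GFP and 8 in yw replicate 2.

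The polyhomeotic genes ph-p and ph-d are tandem copies on X that encode PRC1 subunits with a SAM domain. They had 4, 3, 2 and 5 peaks and 2, 2, 1 and 5 peaks in the order above, and no specific region. In both genes yw replicate 2 had the most peaks, but 3 of its 5 at ph-p lay in 1 region where each Osa-GFP list had 1 peak. By the worse of its ranks in the Osa-GFP lists, the strongest region of any regulator lay across the higher-coordinate end of ph-p, on X at 2136784 to 2138445. Its heights were 47 and 32 fragments in Osa-GFP and 6 and 12 in yw, with ranks of 71 and 117 in the Osa-GFP lists. Both Osa-GFP libraries stood above yw replicate 2, which was of like depth. Between the copies, a shared region at 2124334 to 2124710 fell in the windows of both genes and had 24, 13, 4 and 13 fragments. ph-d and ph-p are near-identical in part, and reads of such copies can be placed on either; the sources used here give a mapping quality filter in the peak names.

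The other PRC1 genes had few peaks. Polycomb (Pc), which encodes the chromodomain subunit, had 1 peak of Osa-GFP replicate 2 with 5 fragments and none of the other lists. Sce, which encodes the ubiquitin ligase of PRC1, had none.

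The 6 PRC2 genes held 1 region of both Osa-GFP lists (0.795 expected from like span). E(z), the methyltransferase, esc, its WD-repeat partner, and Jarid2, an accessory subunit, had no peak. Su(z)12, a core subunit, had 1 yw replicate 2 peak of 5 fragments. Pcl, an accessory subunit, had 1, 0, 0 and 2 peaks, all over the neighbouring gene pAbp. Caf1-55, a histone-binding protein of PRC2 and other complexes, had 1, 2, 1 and 2 peaks. Its shared region, at 15229425 to 15229852 on 3R, lay 1860 bp outside the gene, over mRpS10. There yw replicate 2 was highest, with 6, 8, 9 and 29 fragments in the usual order.

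None of the 7 other Polycomb group genes had a region of both Osa-GFP lists, where 1.01 were expected from like span. The DNA-binding factors pho and phol, Scm, which links PRC1 to other Polycomb complexes, and calypso, a deubiquitinase, had no peak. Sfmbt, the partner of Pho, had 1 yw replicate 2 peak, and lolal, a BTB protein that binds the GAGA factor, had 2. Asx, the partner of Calypso, had 1 peak in each Osa-GFP list and none in yw, but the peaks of 6 and 5 fragments did not overlap each other and made no common region.

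Among the 3 genes of histone methylation in the Trithorax group, all regions of both Osa-GFP lists were at trithorax (trx), which encodes a histone H3 methyltransferase. trx had 5, 5, 0 and 2 peaks, so both Osa-GFP lists were above both yw lists. It had 3 specific regions, the most of any regulator. Of the 200 genes of like span 30% had at least 1 and 11 had 3 or more. All 3 lay inside the gene on 3R: 14278628 to 14279148 with 9 and 7 fragments, 14283395 to 14283744 with 11 and 6, and 14283840 to 14284275 with 9 and 7. These heights were around the median of 8 summit fragments in each Osa-GFP list, at ranks of 1793 to 3271. The 3 regions lay 538 to 983 bp from the nearest region with a yw peak. The highest region of the gene was shared: at 14282561 to 14282856 the Osa-GFP libraries had 14 and 13 fragments and yw replicate 2 had 24. ash1, a histone methyltransferase gene, had no peak, and ash2, which encodes a subunit of the Trithorax-type methyltransferase complexes, had 1 yw replicate 2 peak.

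Both genes of GAGA-binding factors had a specific region, but that of Trl was lost in 4 alternatives. Pipsqueak (psq) encodes a BTB protein that binds GAGA repeats and takes part in both Polycomb and Trithorax function. It is the longest of the 33 genes, at 59393 bp on 2R, and had 11, 14, 3 and 14 peaks. It held 7 shared regions, more than any other regulator, and 4 of its 200 like-span genes had as many or more.

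All shared regions of psq lay inside the gene, as the map of 6 genes shows. The widest region, at 10596117 to 10599840, had 38 and 33 fragments in Osa-GFP and 8 in yw replicate 2. Its neighbour at 10600570 to 10602339 had 43, 26 and 8 in the same libraries. The region at 10580418 to 10582083 had 35, 31 and 8. In these 3 the Osa-GFP heights stood above the control, which met the calling threshold all the same. Next to the last, at 10582260 to 10583887, the control was high too: 46 and 28 fragments in Osa-GFP and 11 and 32 in yw. The specific region, at 10584264 to 10584615, was lower than these in Osa-GFP, with 7 and 8 fragments, and began 376 bp after that shared one. Of the 200 like-span genes of psq, 92 had at least 1 specific region. When only peaks with −log10 q of at least 10 were kept, psq had 4 specific and 3 shared regions in place of 1 and 7. The specific region above, at −log10 q of 5.15 and 6.29, was not among these 4. They were shared regions whose yw peaks fell below the threshold. Trl, which encodes the GAGA factor itself, had 4, 1, 0 and 5 peaks. Its specific region, on 3L at 14759324 to 14759619, had 5 and 6 fragments (−log10 q of 2.93 and 3.95) and lay 218 bp from a yw-only region. Of the 200 like-span genes of Trl, 32 had at least 1 specific region. Trl had no specific region when peaks needed −log10 q of 5 or of 10, when merging needed an overlap of 50% of the shorter peak, or with each list cut to its 774 strongest peaks. The highest summit at Trl, with 18 fragments, was a yw replicate 2 peak 817 bp outside the gene. Part of the Trl span is shared with CG42507.

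**Figure D3:**
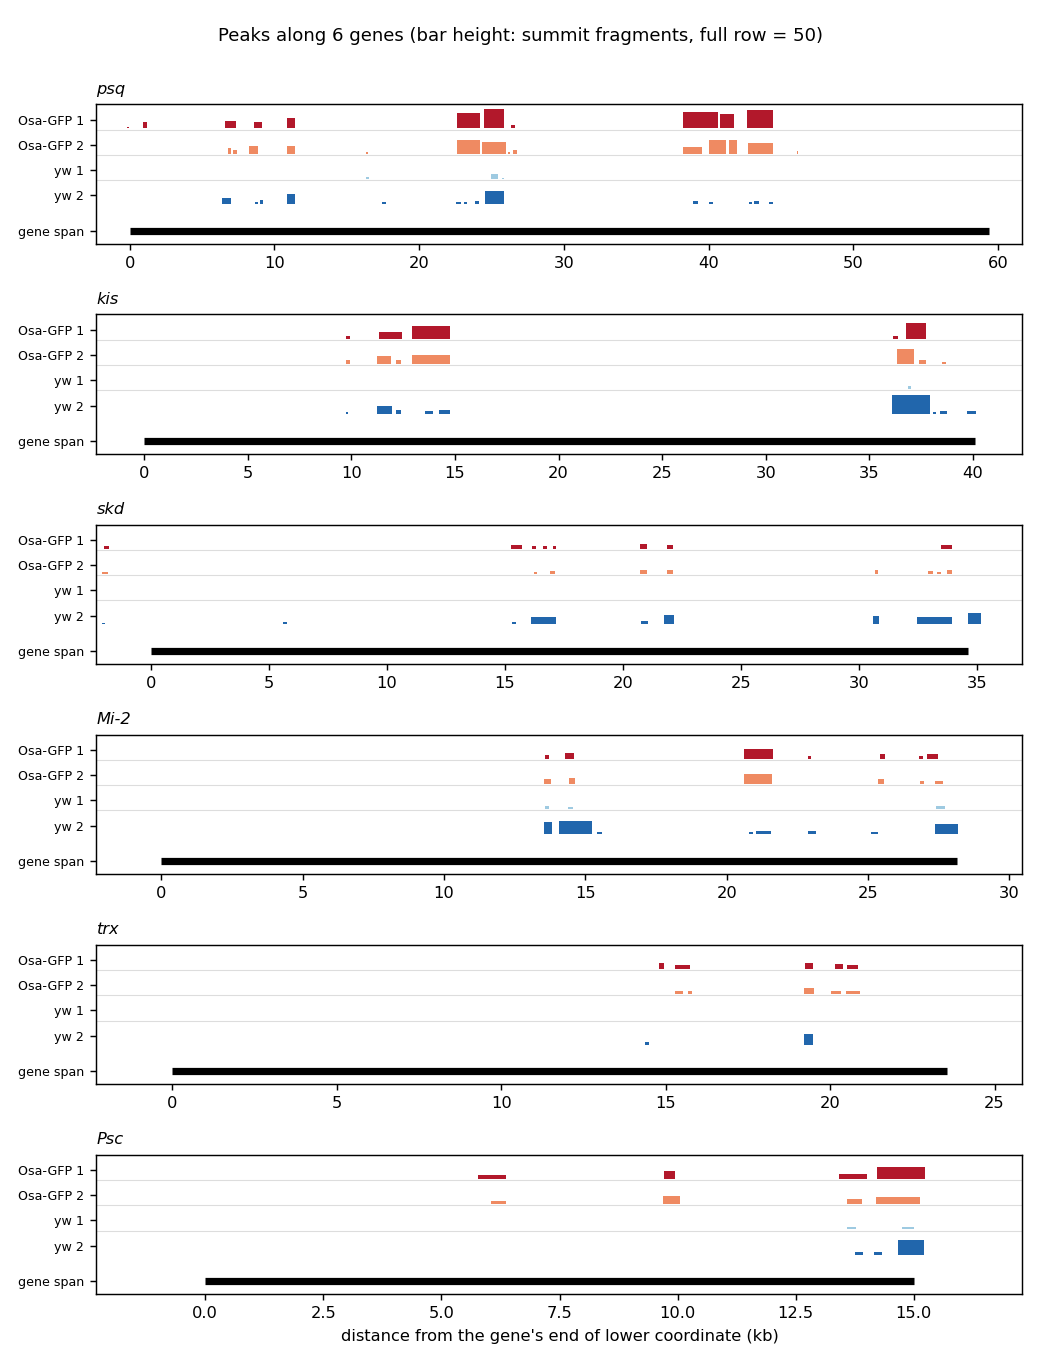
Peaks of each list along psq, kis, skd, Mi-2, trx and Psc, by distance in kb from the gene's end of lower coordinate; the black bar is the gene span, bar width is peak width and bar height is summit fragments, with a full row at 50. At psq both Osa-GFP lists have tall peaks (26 to 43 fragments) at 3 regions where yw replicate 2 has peaks of up to 8. The tallest single peak at skd, Mi-2 and kis is of yw replicate 2 (27, 31 and 46 fragments). Both Osa-GFP lists are above yw replicate 2 at 2 shared regions each of Mi-2 and kis and at 1 of skd.

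The 6 remodeler genes split into long genes with many shared regions and genes with none. kismet (kis), which encodes a CHD-family remodeler of the Trithorax group, had 5, 7, 1 and 9 peaks, 4 shared regions and no specific one. At its region on 2L at 246821 to 248643 the heights were 35 and 34 fragments in Osa-GFP and 7 and 46 in yw. At 223679 to 225491 they were 29 and 20 in Osa-GFP and 11 in yw replicate 2. Thus yw replicate 2 was the highest library at the first region and lower than both Osa-GFP libraries at the second.

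Mi-2 encodes the ATPase of the NuRD complex and had 7, 6, 3 and 8 peaks, with 5 shared regions and 1 specific one. Of its 200 like-span genes, 2 had as many shared regions or more and 65 had at least 1 specific region. At 19902658 to 19903702 on 3L the heights were 23 and 23 fragments in Osa-GFP and 9 in yw replicate 2, and at 19896129 to 19897298 they were 13 and 13 in Osa-GFP and 6 and 31 in yw. The specific region, at 19908852 to 19909015, had 5 and 6 fragments and lay 117 bp from a shared region, the closest among the 8. All Mi-2 regions also fell within the span of Su(Tpl), so they cannot be given to one gene. domino (dom), which encodes an ATPase that exchanges histone variants, had 1 yw replicate 2 peak. E(bx), the large subunit gene of the NURF remodeler, had 1 peak in each yw list, both over neighbouring genes, and none in Osa-GFP. Iswi, the ATPase gene of NURF, and Chd1, a remodeler gene of transcribed chromatin, had no peak.

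Of the Mediator kinase module, skuld (skd) had 8, 9, 0 and 9 peaks and 5 shared regions, and kohtalo (kto), whose product binds the product of skd, had none. The Osa-GFP heights at these 5 regions were 4 to 11 fragments, around the list medians of 8. Both were below yw replicate 2 at 3 regions and above it at 1, with 1 between or tied. At 21025269 to 21026751 on 3L they were 8 and 8 fragments against 17 in yw replicate 2, and at 21014548 to 21014969 they were 9 and 9 against 23. At 21013551 to 21013858 they were 11 and 10 against 9. A further yw-only region, at 21027408 to 21027986, had 27 fragments and no Osa-GFP peak. It crossed the higher-coordinate end of skd, was centred 262 bp beyond that end and also met the gene Pdss2. fs(1)h, the BET bromodomain gene of the fly, had 5, 3, 2 and 2 peaks and 1 shared region, on X at 8058521 to 8058901. That region had 10 and 7 fragments in Osa-GFP and 11 in yw replicate 2. Another 5 regions at fs(1)h held peaks of 1 Osa-GFP list only, of 4 to 11 fragments, and some of them also met the gene mys.

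Across the 31 shared regions, both Osa-GFP summits were above that of yw replicate 2 at 13 (41.9%) and below it at 13 (41.9%), with 5 between or tied. Over all 1550 shared regions with a yw replicate 2 peak they were above at 59.9% and below at 23.1%. psq had 4 regions above and none below, whereas skd had 1 above and 3 below and Mi-2 had 2 above and 3 below. Peaks of both yw libraries were present at 10 of the 31 (32.3%), against 16.9% of all shared regions. The shared regions at the regulators were wide, with a median of 1022 bp against 661 bp for all shared regions. Specific regions had a median of 355.5 bp, against 402 bp for all.

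**Figure D4:**
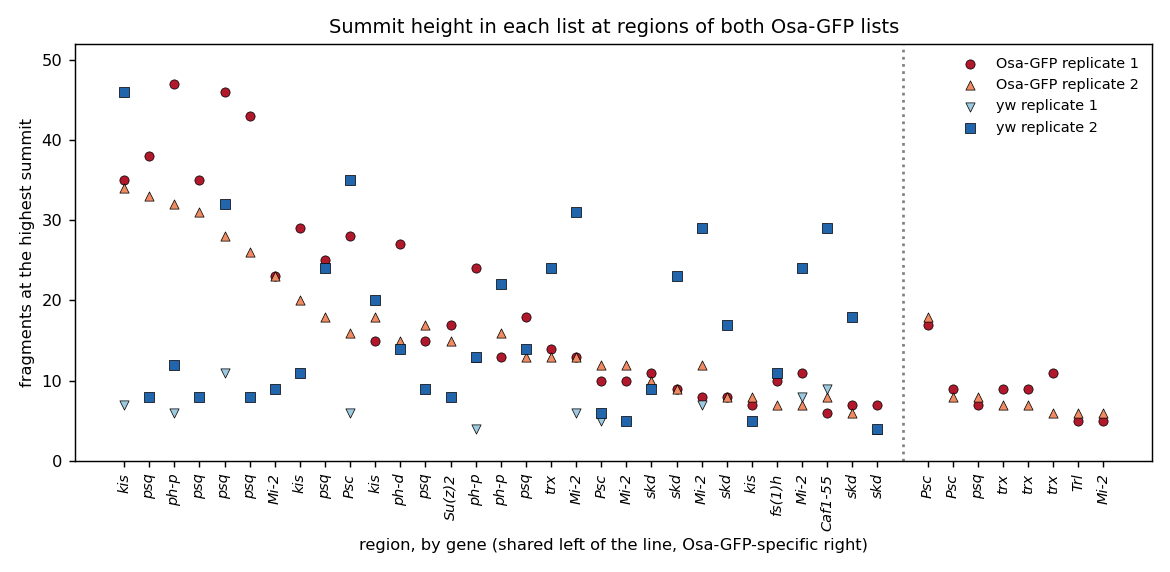
Fragments at the highest summit of each list (vertical axis) in the 31 shared regions (left of the dotted line) and the 8 Osa-GFP-specific regions (right), ordered by the lower Osa-GFP value and named by gene. Among shared regions the blue squares of yw replicate 2 lie below both Osa-GFP points at 13 regions and above both at 13, and 1 specific region, at Psc, stands above the other 7, which reach 5 to 11 fragments.

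The 8 specific regions were all inside the genes, centred 1282 to 26552 bp from the nearer end. Of the 8, 3 lay within 500 bp of a region with a yw peak, where 14.3% of all 1765 specific regions did. The median distance was 659.5 bp at the regulators and 4438 bp over all specific regions. Psc at 12975694 was the only one with −log10 q of 10 or more in both Osa-GFP lists (19 and 20.5).

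By number of peaks, both Osa-GFP lists were above both yw lists at 4 genes, Psc, Asx, trx and fs(1)h, against 5.49% of all genes and 3.46 expected from like span. Both were below both yw lists at 1 gene, E(bx), against 0.819% of all genes and 0.325 expected. Against yw replicate 2 alone, which was of like depth, both Osa-GFP lists were above at 4 genes (5.57% of all genes, 3.5 expected) and below at 12 (14.3% of all genes, 6.02 expected). These 12 included ph-p, ph-d, Trl, kis and Mi-2. Several peaks of a list in 1 region each count here, such as the 3 of yw replicate 2 in the strongest region of ph-p. Peaks in regions of 1 Osa-GFP list only count too, as in 5 regions at fs(1)h.

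A further list of 48 chromatin regulators outside the 33 included histone demethylases, deacetylases and subunits of other complexes. All 3 classes were above their like-span numbers there. Osa-GFP-specific regions lay at 7 of them (4.49 expected from like span, 6.59% of all genes). Shared regions lay at 10 (5.32 expected, 7.75% of all genes) and yw-only regions at 20 (12.4 expected, 20.6% of all genes). No peak lay at 20 of them, where 64.8% of all genes had none. The genes with most specific regions were grainy head (grh), an epithelial transcription factor, with 4, gpp, a histone methyltransferase gene, with 2, and HDAC4, a deacetylase gene, with 2. Kdm2, a demethylase gene, cg, corto and Ino80 had 1 each. At grh the lists held 14 and 11 Osa-GFP peaks and 1 and 5 yw peaks.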

How the data were processed

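Peak lists of 4 anti-GFP CUT&RUN libraries (2 Osa-GFP, 2 yw) were analysed on dm6. The submitters' processing notes list MACS2 2.1.2 among the tools, with Bowtie2 2.3.4.1 and Picard 2.2.4 also named; the calling threshold is not given in the sources used here. Per the deposited peak names, reads were trimmed, filtered on mapping quality and freed of duplicates, and peaks were called per library. Each deposited peak has a fold (a ratio of summit over background), a −log10 p and a −log10 q by the authors' caller. The deposited score, 10 times the −log10 q as a whole number, and the summit position were not used.

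The deposited folds are (fragments + 1) / (background + 1); this gave whole fragments, at a tolerance of 0.01, for 100% of peaks. The lists held 5820, 4987, 774 and 4535 peaks on the 6 arms. Gene spans, without strand, came from RefSeq Release 6. Start sites, exons and introns were not told apart, and no sequence was used. Expected numbers sum, over the members, the share among the 200 protein-coding genes nearest in span. The members and lists were chosen with earlier results of these data known, so counts are described without a p. All members are accounted for by the naming rule, and of other regulators the 4 with most specific regions, plus those tied with the fourth, which were named after their values were seen. The merging and counting steps were tested on simulated data. Python 3.11.15, pandas 2.3.3 and SciPy 1.17.1 were used.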

Additional observations from a re-analysis of the deposited data

How the results depend on the processing

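Of the 4 libraries, leaving out yw replicate 2 moved the 4 counts of genes and regions most, and leaving out the shallow yw replicate 1 moved none of them by over 1.5 times. The cause of changes was not tested. The 5 genes with an Osa-GFP-specific region became 8 with 5 kb either side (5.47 expected from like span, 10.2% of all genes). They became 3 with each list cut to its 774 strongest peaks (1.08 expected, 1.87% of all genes). When both yw lists had to hold a peak they became 11 (6.98 expected, 10.9% of all genes). Leaving out a library gave 5 to 11, the last without yw replicate 2 (6.94 expected). It was 8 without Osa-GFP replicate 1 (6.9 expected) and 7 without Osa-GFP replicate 2 (8.4 expected). With an overlap of 50% needed it was 4 (4.28 expected). At −log10 q of 10 or more 5 genes had one (2.93 expected), 3 of them among the first 5, as trx and Trl gave way to Su(z)2 and kis. Of the first 8 specific regions only that of Psc at 12975694 was kept there. The regions counted at psq and Mi-2 were shared ones whose yw peaks fell below the threshold. The 8 specific regions became 5 with lists of 774 peaks and 29 when both yw lists were needed; leaving out a library gave 8 to 30, with 17 without either Osa-GFP replicate and 30 without yw replicate 2, so that specific regions then outnumbered shared ones. The 11 genes with a shared region became 7 at −log10 q of 10 or more (1.22 expected), 4 with lists of 774 peaks (0.805 expected) and 7 with both yw lists needed (1.14 expected); with 1 library left out the number was 7 (no yw replicate 2) to 13. In each of the 11 alternatives they stayed above the number expected from like span. The 15 genes with a yw-only region became 6 and 4 at −log10 q of 5 and 10 or more (3.39 and 1.92 expected). By gene span alone they became 9 (6.92 expected). With 1 library left out it was 2 (no yw replicate 2, 1.84 expected) to 16 (no Osa-GFP replicate 2, 10.6 expected). The share of peaks at the regulators, Osa-GFP minus yw, was -0.694 percentage points and stayed negative in all 10 alternatives. With lists of 774 peaks the groups met (-0.775, exact permutation p = 0.67). Leaving out a library gave -0.858 to -0.53. Another of the 10, with replicate numbers as pairs (replicate block), gives the same mean of -0.694 by construction and could not change its sign. Within the numbers the differences were -0.941 and -0.447. The exact sign-flip p was 0.5, the smallest that 2 pairs allow, and nothing in the labels says that the numbers pair the libraries.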
